A study of Mus musculus with 20 samples.

Results

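The genes described here build and run the axoneme, the microtubule shaft inside a motile cilium or a sperm tail. They are all the genes of the mouse count matrix whose symbol begins with Dnah, Dnai, Dnal, Dnaaf, Cfap, Drc or Rsph followed by a digit or the letter i and that had at least 40 counts over the 20 libraries. Of 22066 symbols in the matrix 82 matched, all 82 reached the minimum, and all 82 were among the 16534 genes tested. The rule uses symbols and a count floor, but the set was picked for description with earlier results of these data known.

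The libraries are bulk RNA-seq of snap-frozen testis, labelled as mixed testicular cells, from male NSG mice labelled as 6 weeks old. NSG mice are an immunodeficient strain that accepts human cells. There were 5 groups of 4 libraries. NC is the normal control. ALL carried a patient-derived xenograft of B-cell acute lymphoblastic leukaemia (B-ALL), given as 400000 cells into the tail vein, and got no drug. The controls got saline. VCR got vincristine, and the labels name no injected cells for it. Low-VCR and High-VCR carried the xenograft and got vincristine, and differed in low or high infiltration of the peripheral blood. Vincristine sulfate, a drug that blocks microtubule assembly, was given into the peritoneum at 0.5 mg/kg once a week for 3 weeks from day 69. The labels do not say whether the 4 libraries of a group came from 4 separate mice, so every p-value reflects variation among these libraries, part of which may be technical. Library totals were 9425158 to 16357287 counts. The NC and VCR libraries carry library numbers 1 to 8 and the engrafted ones 26 and above, so this range and engraftment cannot be told apart in any comparison between them. Comparisons used edgeR's quasi-likelihood test with Benjamini-Hochberg adjustment over all 16534 genes, and a gene is called changed at an adjusted p under 0.05.

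The axoneme is a ring of doublet microtubules around a central pair. Axonemal dyneins are motors fixed to each doublet in rows of outer and inner arms, and each arm holds heavy chains, which carry the motor, with intermediate and light chains. Radial spokes reach from the doublets to the central apparatus, and the nexin-dynein regulatory complex (N-DRC) links neighbouring doublets. Many Cfap proteins line the inside of the doublet wall, build the central apparatus or anchor the arms. Dnaaf proteins fold and assemble the dynein arms in the cytoplasm before they enter the cilium. In the testis these genes are known for expression in meiotic and haploid germ cells, where the sperm tail forms.

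Ciliary genes are known targets of RFX factors, which bind an inverted repeat named the X-box, and the letters around the start sites were read to see what the genes share. RefSeq promoters (build GRCm38.p6, from 250 bases before to 50 after the start) were matched for 60 of the 82 genes. An X-box match on either strand was in 12 of the 60 (20%), against 474 of 27025 genes with a promoter (1.75%). The half-site GTTGCC, searched on both strands and able to overlap an X-box, was in 23 (38.3%) against 14.1% of all genes. The cyclic AMP element TGACGTCA was in 1 (1.67%, Dnah6) against 2.03%, and the FOXJ1 motif GTAAACA in 3 (5%) against 4.05%. These are counts of letters in the windows and not of bound sites. The 8 windows that follow hold an X-box, in capitals, with 20 bases on each side, for 6 genes that fell with vincristine in VCR and 2 that did not pass the test. All run 5′ to 3′ on the strand of the gene.
Dnai1: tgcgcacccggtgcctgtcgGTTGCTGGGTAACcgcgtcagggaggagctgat
Dnai2: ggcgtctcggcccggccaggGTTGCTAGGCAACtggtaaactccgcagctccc
Cfap58: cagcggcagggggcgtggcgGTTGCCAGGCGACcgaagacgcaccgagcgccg
Cfap45: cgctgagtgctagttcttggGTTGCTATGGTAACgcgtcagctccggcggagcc
Cfap44: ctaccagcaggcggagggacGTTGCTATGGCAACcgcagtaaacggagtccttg
Rsph3b: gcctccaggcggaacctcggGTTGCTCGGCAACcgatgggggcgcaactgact
Dnaaf6: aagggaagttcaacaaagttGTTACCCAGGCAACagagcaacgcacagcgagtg
Dnaaf6b: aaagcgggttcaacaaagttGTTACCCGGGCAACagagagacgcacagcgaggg
Dnai1 (chr4:41569755-41569807) and Dnai2 (chr11:114727366-114727418), both on the plus strand, encode intermediate chains of the outer arm. Their X-boxes begin at -19 and -33 from the start site. Cfap58 (chr19:47937633-47937685, plus), Cfap45 (chr1:172521091-172521144, plus) and Cfap44 (chr16:44394752-44394805, plus) have theirs at -59, -19 and -27. In Rsph3b (chr17:6948315-6948367, minus) the match begins 9 bases after the start. Dnaaf6 (chr1:31222760-31222813, plus) and Dnaaf6b (chrX:140062852-140062905, plus) are near-identical copies whose reads may be split between them. The first 6 of these 8 genes fell with vincristine in VCR and the last pair did not pass the test, so the motif was present in genes of both kinds. Of the 48 genes called lower in VCR that had a promoter, 10 held an X-box (20.8%).

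A pair of whole promoters shows the ends of the range among genes with no X-box. Cfap100 (chr6:90428431-90428730, minus strand), which had the second largest fall in VCR, held 1 GTTGCC, in capitals. Dnah11 (chr12:118198994-118199293, minus strand), whose level did not pass the test in any comparison with TMM scaling, held none of the 4 motifs.
Cfap100: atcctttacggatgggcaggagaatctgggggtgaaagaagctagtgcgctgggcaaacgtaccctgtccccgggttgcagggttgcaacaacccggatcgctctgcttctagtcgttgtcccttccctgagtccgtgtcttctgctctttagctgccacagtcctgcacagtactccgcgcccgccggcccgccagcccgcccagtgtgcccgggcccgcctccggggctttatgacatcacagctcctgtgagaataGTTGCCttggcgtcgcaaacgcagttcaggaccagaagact
Dnah11: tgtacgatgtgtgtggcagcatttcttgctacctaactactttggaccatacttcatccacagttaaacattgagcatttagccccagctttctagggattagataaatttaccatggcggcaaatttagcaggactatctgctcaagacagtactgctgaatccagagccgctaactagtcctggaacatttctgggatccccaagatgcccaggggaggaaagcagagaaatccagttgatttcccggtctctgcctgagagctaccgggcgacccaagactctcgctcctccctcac

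In untreated testis the 82 genes together took 1.87 to 2.03% of all counts in NC and 1.92 to 2.02% in ALL. Levels compared between genes are in CPM (read counts scaled to a common library total) per kilobase of exon, which could be given for 72 of the 82 (87.8%). In NC the highest was Rsph1, a protein of the radial spoke head, at 2990 ± 505 CPM per kb (SD, n = 4). The assembly factor Dnaaf1 followed at 617 ± 29.3. Among outer arm heavy chains, Dnah17 and Dnah8, the chains known from sperm tails, stood at 81.7 and 21.8 CPM per kb. Dnah9, Dnah11 and Dnah5, the chains known from airway cilia, stood at 1.3, 1.25 and 1.24, values whose order is not resolved. Rsph4a, a spoke head protein known from airway cilia, was lowest of the 72 at 0.384 CPM per kb, while its sperm relative Rsph6a was at 175.

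Engraftment alone was asked by ALL against NC. No gene of the 82 was called, against 0% of all genes tested in either direction. The median log2 change of the 82 was -0.003, against -0.022 over all genes, and single genes lay between -0.28 and 0.35. At an unadjusted p under 0.05 there were 0 of the 82 and 748 of all genes, and DESeq2 called 0 of the 82. The 3 genes with the smallest p were Rsph3b (log2 change -0.28), Dnah11 (0.13) and Dnaaf10 (-0.25), and none passed (adjusted p = 1 for each in edgeR). The groups did not overlap in 4 genes lower in ALL (5.49% of all genes) and 1 gene higher (3.41%). The plot of all 82 genes by library shows NC and ALL as 8 columns of like colour.

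**Figure D1:**
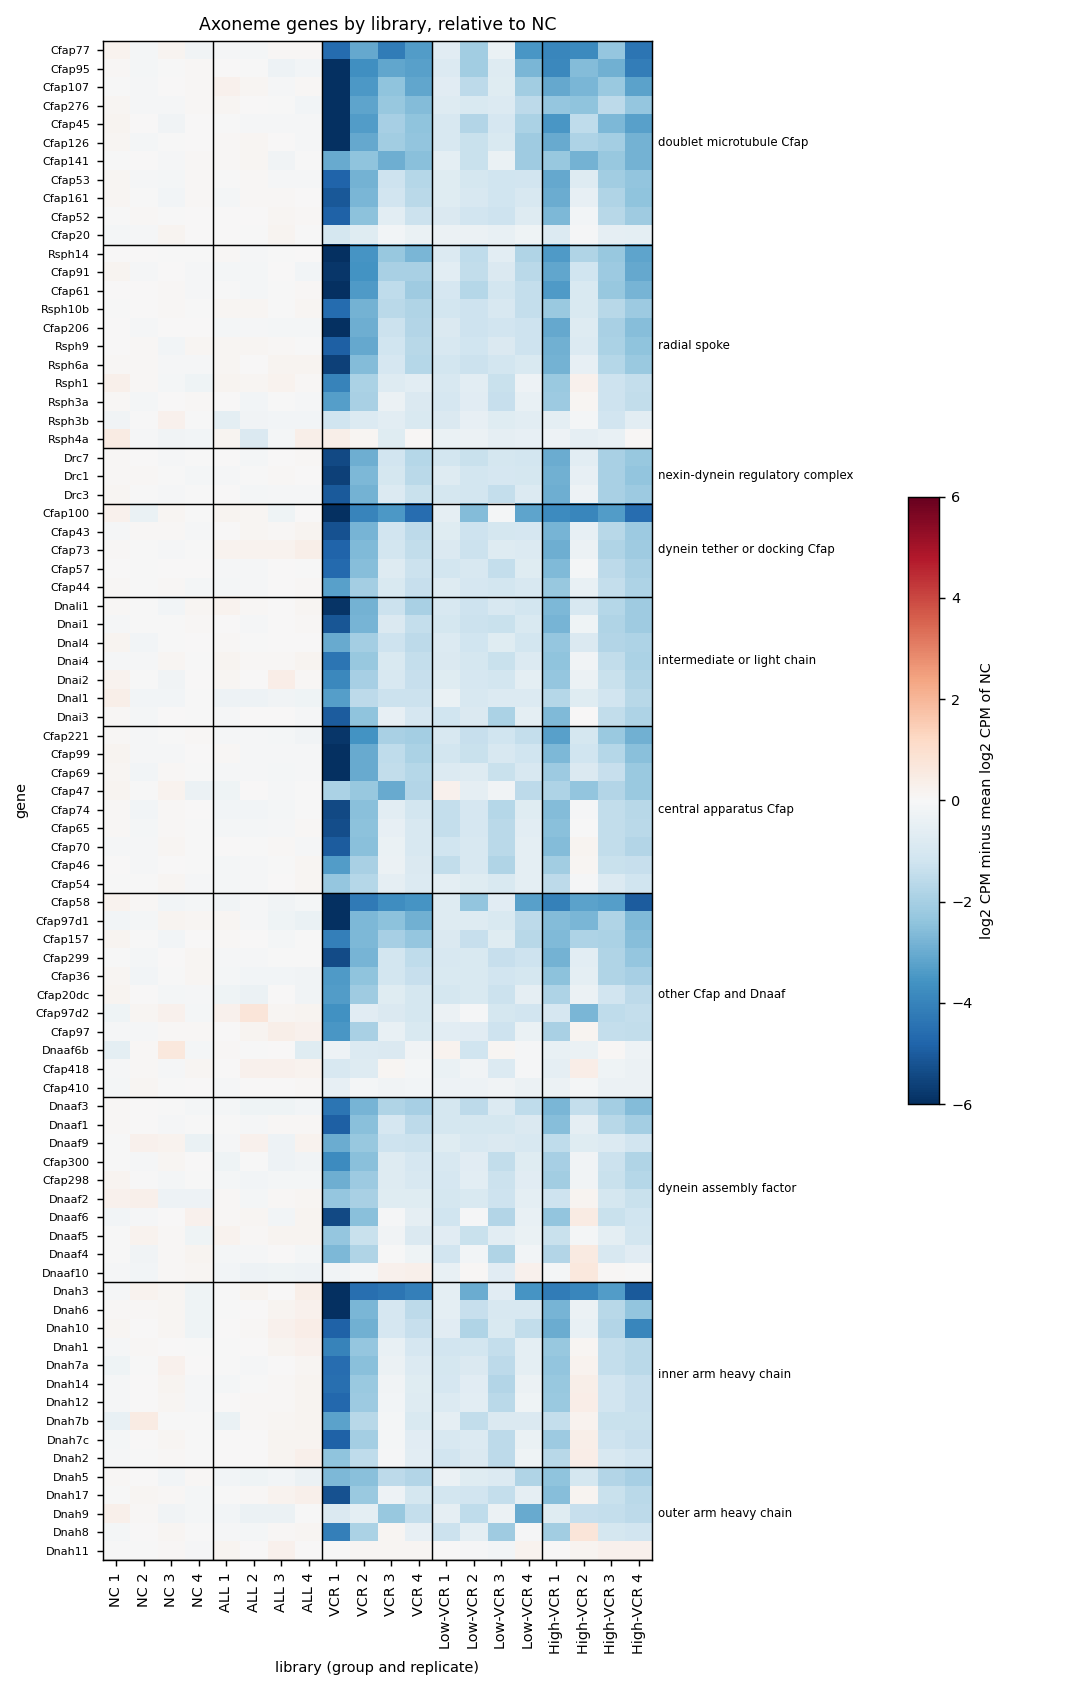
Heat map of the 82 genes (one line each, grouped by role) in the 20 libraries (columns, by group). Colour is log2 CPM minus the mean of NC, limited to the range from -6 to 6. VCR 1 is the darkest column of the treated libraries and High-VCR 2 the palest of High-VCR.

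Vincristine without a named graft was asked by VCR against NC. Of the 82 genes, 67 fell (81.7%) and 0 rose, where 35.6% of all genes tested were called lower and 42.1% higher. The median log2 change was -1.79 over the 82 and 0.10 over all genes tested. In 70 genes every VCR library was below every NC library (34.2% of all genes), and in 0 were all above (39.7%). The largest falls were in Dnah3, an inner arm heavy chain, in Cfap100, a protein associated with inner arms, and in Cfap58, a sperm tail protein. Dnah11, Dnaaf10 and Rsph4a were within 0.1 of NC on the log2 scale and did not pass, and the sign of each turned with another scaling. With library size alone Dnah11 was called higher (0.48, adjusted p = 0.000266), and so was Dnaaf10 (0.46, adjusted p = 0.0227). In bulk tissue, fewer cells of a type and less RNA per cell cannot be told apart.

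The doublet microtubule group had the lowest median, -2.84, and all 11 of its genes fell. Cfap141, which lines the doublet wall, was at 50.2, 50.7, 47.6 and 52.6 CPM in NC 1 to NC 4, and at 6.17, 9.49, 6.56 and 8.67 in VCR 1 to VCR 4. The VCR libraries lay close together and far below NC, a fall of 6.51-fold (log2 -2.70, SE 0.28, adjusted p = 2.42e-07 in edgeR). Cfap77, another inner doublet protein, was at 17.4 to 23.1 CPM in NC and at 0.762, 2.35, 1.05 and 1.90 in VCR (log2 -3.75, SE 0.57). Cfap95 fell by a similar 3.71 (SE 0.59, adjusted p = 2.39e-05), while Cfap20, a protein of the inner junction of the doublet, fell by 0.56 (SE 0.16, adjusted p = 0.00468).

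Of the radial spoke genes 10 of 11 fell, with a median of -2.14. Rsph14 was at 36.7, 37.8, 36.2 and 35.9 CPM in NC, and at 0.305, 3.11, 7.47 and 5.40 in VCR. All VCR libraries were below all NC libraries, and VCR 1 stood lowest (log2 -3.16, SE 0.52, adjusted p = 3.81e-05). Rsph10b, a spoke head protein, fell 5.09-fold (SE 0.42 in log2, adjusted p = 8.07e-05). The spoke head relatives Rsph6a and Rsph4a are given side by side, and the difference between their changes was not tested. Rsph6a was at 387 to 439 CPM in NC and at 8.46, 68.0, 203 and 125 in VCR (log2 -2.03, SE 0.60, adjusted p = 0.00532). Rsph4a was at 1.16 to 1.95 CPM in NC and at 0.787 to 1.75 in VCR (log2 -0.02, SE 0.30, adjusted p = 0.955). At about 1 CPM, small changes in Rsph4a were not detectable at this depth. Rsph3a and Rsph3b are near-identical copies whose reads may be split, and both were called lower.

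All 3 N-DRC genes fell, with a median of -2.02. Drc7 was at 175, 167, 158 and 166 CPM in NC, and at 3.81, 21.5, 74.2 and 51.0 in VCR (log2 -2.15, SE 0.58, adjusted p = 0.0028). Its VCR libraries spread over a 19.5-fold range without reaching NC. Drc1, the scaffold of this complex, fell by 2.02 (SE 0.60, adjusted p = 0.00574).

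The 5 tether or docking Cfap genes all fell, with a median of -1.98. Cfap100 was at 86.1, 54.1, 78.5 and 70.9 CPM in NC, and at 0.533, 4.48, 6.56 and 2.89 in VCR. The groups did not approach each other, and the fall was 19.8-fold (log2 -4.31, SE 0.64, adjusted p = 1.28e-05). Cfap44, which tethers the motor head of an inner arm, fell by 1.67 (SE 0.39, adjusted p = 0.000831).

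All 7 intermediate and light chain genes fell, with a median of -1.79. Dnal4, a light chain, was at 61.0, 48.1, 52.8 and 54.1 CPM in NC, and at 6.48, 13.1, 22.4 and 17.9 in VCR. NC stayed above VCR throughout (log2 -1.85, SE 0.31, adjusted p = 3.77e-05). Dnal1, a light chain of the outer arm, fell by 1.70 (SE 0.31, adjusted p = 0.000105).

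Of the central apparatus genes 8 of 9 fell, with a median of -1.61. Cfap47 was at 31.7, 28.3, 33.1 and 22.1 CPM in NC, and at 7.62, 5.85, 3.41 and 8.44 in VCR (log2 -2.19, SE 0.32, adjusted p = 8.52e-06). Unlike most of the set, Cfap47 was lowest in VCR 3 and not in VCR 1. Cfap221 fell 6.69-fold (SE 0.54 in log2, adjusted p = 0.000217), and Cfap70, at -1.43 (SE 0.65, adjusted p = 0.0528), did not pass.

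Of 10 assembly factors 7 fell, with a median of -1.38. Dnaaf3 was at 214, 203, 201 and 189 CPM in NC, and at 9.60, 28.9, 56.9 and 50.0 in VCR (log2 -2.47, SE 0.40, adjusted p = 2.58e-05). Dnaaf9 fell by 1.80 (SE 0.30, adjusted p = 4.12e-05). Dnaaf10, a partner of a prefoldin-like chaperone complex, was at 18.7 to 22.3 CPM in NC and at 17.9 to 25.9 in VCR, with the groups overlapping (log2 0.08, SE 0.20, adjusted p = 0.726). Dnaaf4 (-0.83, SE 0.52) and Dnaaf6 (-1.15, SE 0.69) did not pass either.

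Heavy chains had the medians nearest to 0. Of 10 inner arm heavy chains 5 fell (50%), with a median of -1.28. Of 5 outer arm heavy chains 2 fell (40%), with a median of -1.19. Of all genes 35.6% were called lower, so the outer arm count was near the background. Dnah3 was at 269, 330, 314 and 242 CPM in NC, and at 1.14, 12.5, 13.6 and 16.5 in VCR. Its fall of 26.4-fold (log2 -4.72, SE 0.72, adjusted p = 1.64e-05) was the largest of the 82. The inner arm chain Dnah10 fell by 1.94 (SE 0.67, adjusted p = 0.014). Dnah6 was at 122 to 157 CPM in NC and had 0 counts in VCR 1, which allows up to 0.229 CPM there, with 21.6, 71.5 and 49.4 CPM in the other VCR libraries. The near-identical copies Dnah7a, Dnah7b and Dnah7c may share reads, and of them Dnah7b passed (log2 -1.12, SE 0.48, adjusted p = 0.0416).

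Of the outer arm heavy chains, Dnah5 and Dnah9 were called and Dnah11, Dnah17 and Dnah8 were not. Dnah5 was at 20.1, 19.7, 17.3 and 20.4 CPM in NC, and at 2.90, 3.34, 6.56 and 5.63 in VCR (log2 -2.07, SE 0.31, adjusted p = 1.23e-05). Dnah9 was at 22.8, 19.7, 15.9 and 17.0 CPM in NC, and at 10.1, 12.4, 3.74 and 6.84 in VCR (log2 -1.19, SE 0.41, adjusted p = 0.0151, or 0.106 with library size alone). In Dnah11 the groups overlapped, with 17.5, 17.6, 18.3 and 16.9 CPM in NC, and 17.5, 19.0, 19.3 and 18.9 in VCR (log2 0.09, SE 0.10, adjusted p = 0.416). The 3 airway chains were at like levels in NC, and the difference between their changes was not tested. The span of Dnah11 overlaps that of Cdca7l, which was at 3.43 ± 0.552 CPM in NC and rose to 7.32 ± 1.04 in VCR, and how the counting divided reads between them was not tested. The sperm chain Dnah17 was at 1214, 1316, 1273 and 1124 CPM in NC, and at 32.8, 263, 990 and 586 in VCR (log2 -1.40, SE 0.65, adjusted p = 0.0593). All VCR values of Dnah17 lay below NC, over a wide range. Its overlapping neighbour Pgs1 was at 66.0 and 65.8 CPM in the same groups. The sperm chain Dnah8 was at 345, 379, 399 and 359 CPM in NC, and at 21.3, 99.7, 399 and 265 in VCR, so that VCR 3 was as high as NC (log2 -0.92, SE 0.66, adjusted p = 0.207).

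**Figure D2:**
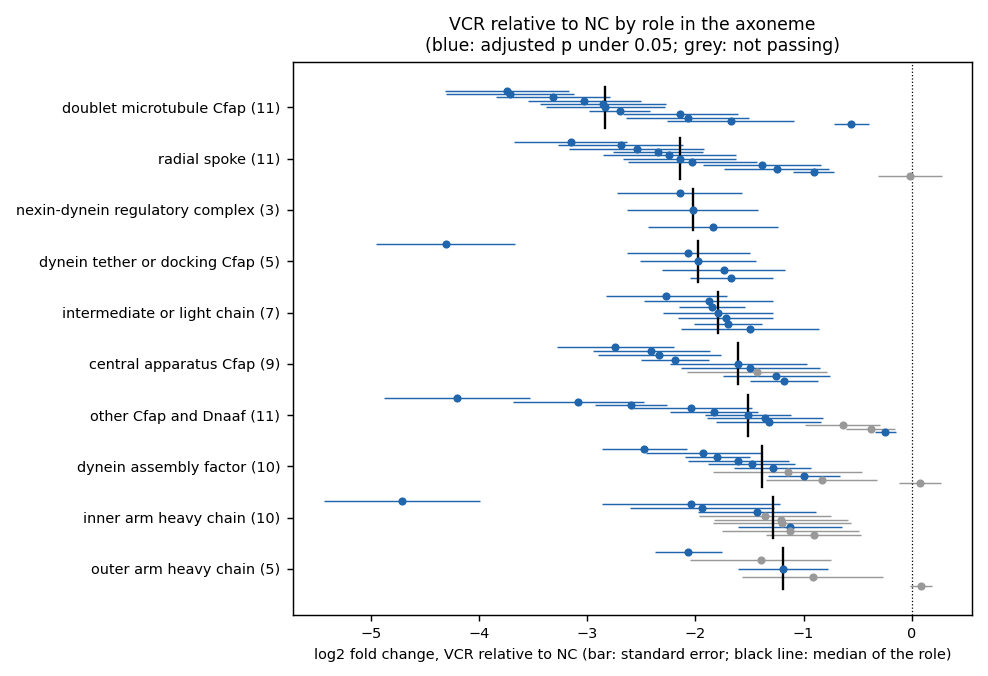
Log2 fold change of each gene in VCR relative to NC (dot, with standard error as bar), by role, with the number of genes of the role in parentheses and its median as a black line. Doublet microtubule genes have the lowest median (-2.84) and outer arm heavy chains the highest (-1.19).

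The remaining 11 genes hold Cfap and Dnaaf members of other or uncertain place, and 9 of them fell (median -1.51). Cfap58 was at 335, 310, 262 and 268 CPM in NC, and at 1.52, 15.6, 21.7 and 24.7 in VCR, an 18.5-fold fall (SE 0.67 in log2, adjusted p = 2.57e-05). Cfap157, known for a role in sperm tail formation, was at 148 to 188 CPM in NC and at 9.52, 25.6, 41.4 and 33.8 in VCR (log2 -2.60, SE 0.33, adjusted p = 2.46e-06). The smallest fall that passed was in Cfap410, from 29.2 to 34.5 CPM in NC to 22.6 to 29.3 in VCR (log2 -0.24, SE 0.10, adjusted p = 0.0311). This call was lost without NC 2 (adjusted p = 0.0963), NC 4 (0.0581) or VCR 1 (0.14), and with VCR 1 and High-VCR 2 both left out (0.0841). With scaling by library size alone its change was 0.14 (adjusted p = 0.185), and that scaling moved the median of all genes from 0.10 to 0.49. Cfap418, known for a role in photoreceptors, was at -0.38 (SE 0.23, adjusted p = 0.133) and did not pass. It was called lower with DESeq2 size factors in edgeR (adjusted p = 0.0382), by DESeq2 (0.0347), with Sertoli scaling (8.21e-06) and without VCR 3 (0.0245).

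The treated libraries differed widely among themselves. The summed level of the 82 genes was 20970 to 23300 CPM in NC and 21990 to 22970 in ALL. It was 1212, 4401, 12430 and 9734 CPM in VCR 1 to VCR 4. It was 11320, 11090, 9494 and 13070 CPM in Low-VCR, and 4117, 19250, 7725 and 6216 in High-VCR. Every treated library was below every untreated one. Of the treated groups Low-VCR was the most even, while VCR 1 stood low and High-VCR 2 stood high. VCR 1 was the lowest VCR library in 78 of 82 genes, and 50 genes were there over 4 log2 units below the mean of NC. High-VCR 2 was the highest High-VCR library in 69 genes, and 21 genes were there above the mean of NC. With VCR 1 and High-VCR 2 both left out, a setting chosen after these values were seen, 69 of the 82 genes were called lower in VCR. Over all settings tried, the count in VCR ran from 52, with library size alone, to 82, with scaling to Sertoli cell genes.

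Across VCR 1 to VCR 4, summed spermatocyte and spermatid markers ranked as the summed level of the set did. This did not hold for every marker list in the other treated groups. Low-VCR 4 had the highest set level of its group (13070 CPM) and the lowest round spermatid sum (1483). High-VCR 3 was above High-VCR 2 for elongating spermatid markers (19830 and 16800 CPM) but below it for the set (7725 and 19250). Summed round spermatid markers were at 4797 to 5217 CPM in NC, and at 43.0, 599, 1134 and 745 in VCR 1 to VCR 4, with all 16 markers called lower (median -4.06). Elongating spermatid markers (18 of 18 lower, median -2.32) were at 28250 to 33750 CPM in NC and 419 to 12650 in VCR. Spermatocyte markers (14 of 18 lower, median -1.56) were at 9452 to 9723 in NC and 284 to 5570 in VCR. Markers of spermatogonia, the germ cells before meiosis, were higher in 6 of 13 (46.2%, against 42.1% of all genes). They were lower in 1 (7.69%, against 35.6%). Their median was 0.74, and the share called higher was near the background. Markers of somatic cells moved the other way, with Sertoli cell markers (21 of 22 higher, median 1.95) at 2257 to 2605 CPM in NC and 9177 to 14020 in VCR. Leydig cell (10 of 10) and macrophage markers (11 of 11) were higher too, where 42.1% of all genes were called higher. The part of these markers in the result was not tested. Scaled to the Sertoli genes, the median of all genes became -2.09, and the share of called genes that were higher fell from 54.2 to 4.94%. Summed markers of the epididymis and efferent ducts, the latter of which bear motile cilia, were at 53.2 to 90.7 CPM over all 20 libraries. Of the 7 tested, 3 were lower (42.9%, against 35.6% of all genes) and 3 higher in VCR (42.9%, against 42.1%). Their log2 changes ran from -5.53 to 2.21 (median -0.02), so the level sum holds members that moved both ways. The 10 tested markers of multiciliated cells summed to 3390 to 3836 CPM in NC and 466.5 to 1534 in VCR. Of them 8 were lower (80%, against 35.6% of all genes) and 2 higher in VCR (20%, against 42.1%). Their median was -2.06. Foxj1 is on this list and also on that of ciliary and spermatid transcription factors. The sum thus cannot be read as the level of multiciliated cells alone. Of the 15 listed, Sntn, Mcidas and Tmem212 had 14, 29 and 41 counts over all 20 libraries.

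Within Low-VCR, the libraries did not rank alike from gene to gene. Dnah3 was at 190, 36.6, 178 and 24.2 CPM in Low-VCR 1 to Low-VCR 4. Cfap100 was at 48.9, 11.9, 65.6 and 7.99, and Cfap58 at 170, 57.1, 182 and 30.6. Dnah8 ran the other way, at 150, 246, 84.5 and 348. So Low-VCR 1 and Low-VCR 3 were high for Dnah3 and low for Dnah8, and Low-VCR 2 and Low-VCR 4 the reverse. Relative to the mean of NC, Low-VCR 3 was at -0.68 for Dnah3 and -2.13 for Dnah8, and Low-VCR 4 at -3.56 and -0.09. The marker sums crossed in the same libraries. Round spermatid markers were at 2726, 1719, 2926 and 1483 CPM, and spermatocyte markers at 5198, 6137, 4320 and 5870. Elongating spermatid markers, at 16820, 24990, 14090 and 23240 CPM, ranked as the spermatocyte markers did and not as the round spermatid markers. High-VCR 2 showed a like contrast, with Dnah3 at -3.93 and Cfap100 at -3.91 but Dnah17 at 0.17 and Dnah8 at 0.74 log2 relative to NC. There round spermatid markers were at 1262 CPM, against 706, 1234 and 782 in High-VCR 1, High-VCR 3 and High-VCR 4. Spermatocyte markers were at 7365 CPM, against 2047 to 3841 in the other High-VCR libraries. High-VCR 2 was thus highest of its group for both lists, and these sums did not cross. Elongating spermatid markers were highest in High-VCR 3, at 19830 CPM, against 16800 in High-VCR 2. These libraries and genes were picked after their values were seen, and the relation to the markers is a description.

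**Figure D3:**
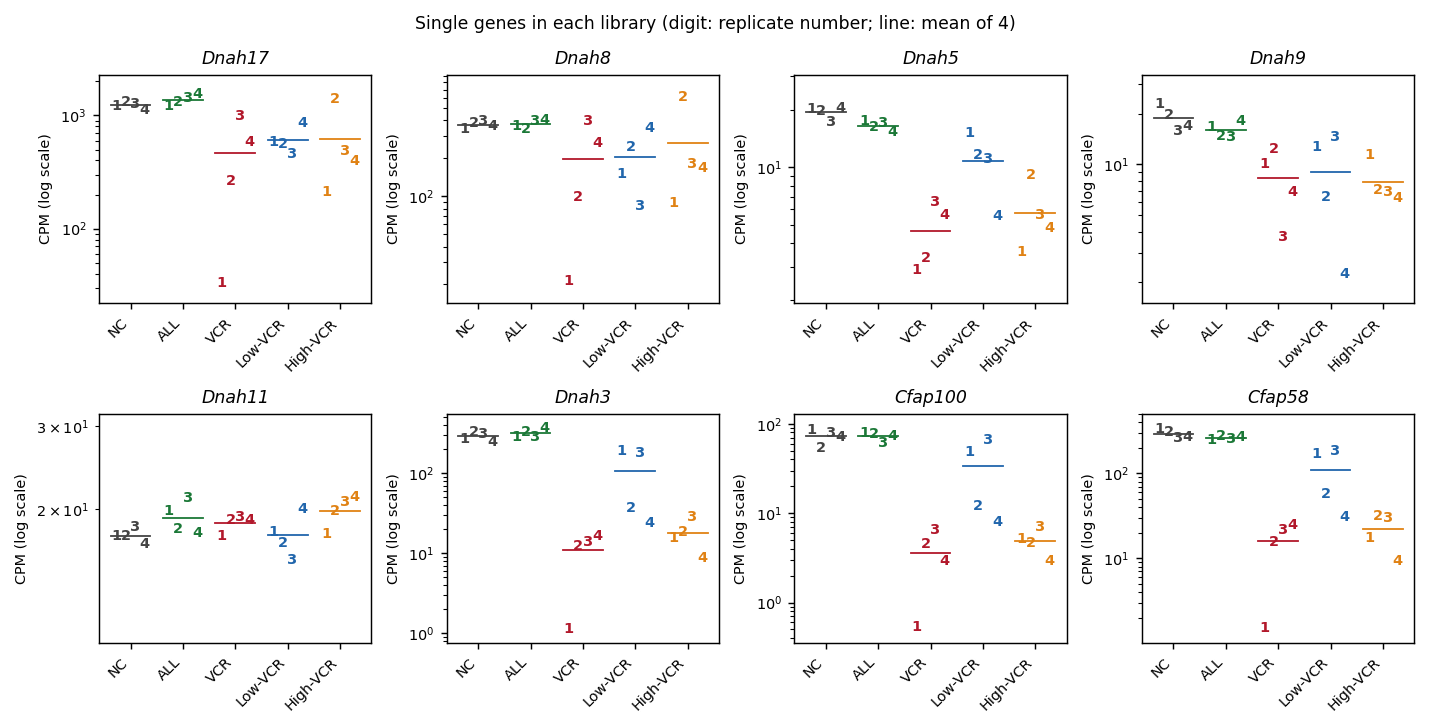
CPM (log axis) of 8 genes in each library. Digits are replicate numbers within a group and lines the mean of 4. Dnah3, Cfap100 and Cfap58 are high in Low-VCR 1 and 3, Dnah8 is high in Low-VCR 2 and 4, and the means of Dnah11 are 17.6 to 19.9 CPM across all groups.

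Vincristine in engrafted testis with low blood infiltration was asked by Low-VCR against ALL. Here 14 of the 82 genes fell (17.1%) and 0 rose, where 15.2% of all genes were called lower and 36.4% higher, so that the count was near the background. The median change was -0.997 over the 82 and 0.08 over all genes. In 73 genes every Low-VCR library was below every ALL library (29.4% of all genes). The genes called included Cfap141, at 43.8 to 54.4 CPM in ALL and at 33.6, 19.7, 37.8 and 11.5 in Low-VCR (log2 -0.97, SE 0.26, adjusted p = 0.00567). The light chain Dnal4, at 52.5 to 56.8 CPM in ALL and 23.5 to 32.1 in Low-VCR, fell by 0.98 (SE 0.30, adjusted p = 0.0113). Cfap157 fell by 1.09 (SE 0.32, adjusted p = 0.00881) and Rsph10b by 1.26 (SE 0.40, adjusted p = 0.0158). Dnah3 fell by 1.56 (SE 0.63, adjusted p = 0.0467). That call was lost with library size alone (adjusted p = 0.0981), no filter (0.0552), the compared groups alone (0.0504) and the replicate block (0.0542). It was lost too without any 1 ALL library, Low-VCR 2 or Low-VCR 4 (0.0659 to 0.117). Assembly factors gave 4 of the 14, with Dnaaf9 at -0.93 (SE 0.29, adjusted p = 0.0144) and Dnaaf2 at -0.97 (SE 0.36, adjusted p = 0.0316). The doublet gene Cfap107 (-1.24, SE 0.48, adjusted p = 0.0408), the tether gene Cfap44 (-0.94, SE 0.38, adjusted p = 0.0468) and Cfap410 (-0.31, SE 0.10, adjusted p = 0.015) were called as well. With library size alone Dnaaf2, Dnaaf9, Cfap107, Cfap44 and Cfap410 lost the call (adjusted p = 0.0512 to 0.663). Dnaaf2, Cfap107 and Cfap44 also lost it in several fits with 1 library left out, the highest adjusted p being 0.0794, 0.109 and 0.094. The count changed with the fit and the scaling. It was 68 of 82 when only the Low-VCR and ALL libraries were fitted, 58 by DESeq2 and 42 with DESeq2 size factors. With Sertoli scaling it was 82, and with library size alone 4. In the same order, the median of all genes was 0.054, -0.096, -0.096, -1.869 and 0.334. That of the 82 was -0.987, -1.175, -1.172, -2.94 and -0.748. The share of all genes called in each setting is not given here. The count was 6 without ALL 1, ALL 3, ALL 4 or Low-VCR 2, 8 without ALL 2, and 10 to 13 without another library. No gene had all Low-VCR libraries above ALL (35% of all genes).

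High blood infiltration was asked by High-VCR against ALL. Of the 82 genes 54 fell (65.9%) and 0 rose, where 30.5% of all genes were called lower and 42.4% higher. The median was -1.41 over the 82 and 0.16 over all genes, and in 54 genes every High-VCR library was below every ALL library (29.1% of all genes). Dnah3 was at 282 to 369 CPM in ALL and at 15.3, 18.7, 28 and 8.60 in High-VCR, a 17.9-fold fall (log2 -4.16, SE 0.70, adjusted p = 5.14e-05). Cfap100 was at 60.2 to 78.8 CPM in ALL and at 5.15, 4.67, 7.03 and 2.90 in High-VCR (log2 -3.88, SE 0.63, adjusted p = 3.34e-05). For both genes High-VCR 2 was as low as the other libraries of its group. For Cfap141 the 4 libraries were at 10.2, 6.94, 10.2 and 7.03 CPM (log2 -2.55, SE 0.28, adjusted p = 4.84e-07). Cfap77 fell by 3.42 (SE 0.55) and the sperm tail protein Cfap58 by 3.58 (SE 0.65), and Cfap157 by 2.18 (SE 0.33).

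By role, all 11 doublet genes and all 3 N-DRC genes fell in High-VCR, and so did 6 of 7 intermediate and light chains and 4 of 5 tether genes. The count was 7 of 11 for radial spokes, 5 of 9 for the central apparatus and 5 of 10 for assembly factors. It was 2 of 10 for inner arm (20%) and 2 of 5 for outer arm heavy chains (40%). Of all genes 30.5% were called lower, so the heavy chain counts were near or below the background. The outer arm chains that fell were Dnah5 (log2 -1.51, SE 0.30, adjusted p = 0.000266) and Dnah9 (-1.02, SE 0.41, adjusted p = 0.0353). The Dnah9 call was lost with library size alone (adjusted p = 0.141), and without ALL 1, ALL 4, High-VCR 2, High-VCR 3 or High-VCR 4 (0.0612 to 0.0867). Of the spokes, Rsph14 fell by 2.53 (SE 0.51) and Rsph10b by 1.71 (SE 0.41), and of the central apparatus Cfap221 by 1.99 (SE 0.52) and Cfap47 by 1.96 (SE 0.31). The light chains Dnali1 and Dnal4 fell by 1.85 (SE 0.55) and 1.63 (SE 0.30), and the assembly factors Dnaaf3 and Dnaaf9 by 1.92 (SE 0.39) and 1.06 (SE 0.30). Cfap44 fell by 1.32 (SE 0.38). Of the N-DRC, Drc7 fell by 1.71 (SE 0.57) and Drc1 by 1.62 (SE 0.60, adjusted p = 0.0218), the latter lost without High-VCR 1, High-VCR 3 or High-VCR 4 (0.0536 to 0.0674). The inner arm chain Dnah10 fell by 1.92 (SE 0.67, adjusted p = 0.0163), or 0.0519 without High-VCR 1. Dnah17, at 210, 1384, 481 and 397 CPM, and Dnah8, at 88.3, 616, 180 and 167, reached or passed ALL in High-VCR 2 and did not pass the test. Dnaaf10 was the 1 gene whose High-VCR libraries all lay above ALL (40.9% of all genes), at 19.3 to 32.1 against 16.9 to 18.2 CPM (log2 0.43, SE 0.20, adjusted p = 0.0585). The count of genes called lower was 75 without High-VCR 2, 36 without High-VCR 1 and 45 to 49 without ALL 1 to ALL 4 or High-VCR 3, and it was 37 without High-VCR 4.

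High-VCR was then compared with Low-VCR directly. Of the 82 genes 8 were lower in High-VCR (9.76%) and 0 higher, where 4.69% of all genes were called lower and 3.13% higher. They were Cfap141 (log2 -1.58, SE 0.27, adjusted p = 0.0215), Cfap47 (-1.67, SE 0.31, adjusted p = 0.0215), Cfap100 (-2.77, SE 0.60, adjusted p = 0.0215) and Cfap77 (-2.19, SE 0.54, adjusted p = 0.026). The others were Dnah3 (-2.60, SE 0.66, adjusted p = 0.0279), Cfap58 (-2.33, SE 0.62, adjusted p = 0.0332), Cfap157 (-1.09, SE 0.32, adjusted p = 0.0442) and Cfap95 (-1.85, SE 0.55, adjusted p = 0.0467). Cfap47, a central apparatus protein, was at 34.6, 19.4, 24.3 and 9.65 CPM in Low-VCR and at 7.80, 5.51, 8.41 and 5.97 in High-VCR. Its groups did not overlap, while those of Dnah3 and Cfap58 did. In 6 genes all High-VCR libraries were below Low-VCR (4.94% of all genes), and in 0 were all above (6.16%). None of the 82 was called when only these 8 libraries were fitted, or without Low-VCR 1, Low-VCR 3, High-VCR 1 or High-VCR 4, and 16 were called without High-VCR 2.

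Low-VCR was higher than VCR in 21 genes (25.6%) and lower in 0, where 16.7% of all genes were called higher and 13.6% lower. In 24 genes every Low-VCR library was above every VCR library (13.8% of all genes). Dnah3 was 9.79-fold higher in Low-VCR (log2 3.29, SE 0.68, adjusted p = 0.00432) and Cfap100 9.21-fold (3.20, SE 0.62, adjusted p = 0.0036). Cfap141 was 3.32-fold higher (1.73, SE 0.27, adjusted p = 0.00237), and Cfap47 3.48-fold (1.80, SE 0.31, adjusted p = 0.00271). All 8 genes that were lower in High-VCR than in Low-VCR are among the 21, and these comparisons share the Low-VCR libraries. Rsph14 (2.05, SE 0.51, adjusted p = 0.00958) and Dnah5 (1.22, SE 0.31, adjusted p = 0.00961) were higher too, although Dnah5 overlapped through Low-VCR 4. So were Cfap58 (2.79, SE 0.63), Cfap77 (2.50, SE 0.56) and Cfap157 (1.48, SE 0.32), which lost the call in no setting but the fit of these 8 libraries alone. Less steady were Cfap221 (1.51, SE 0.53), Dnaaf3 (1.26, SE 0.38), Rsph10b (1.17, SE 0.41), Dnal1 (0.94, SE 0.31), Dnaaf9 (0.89, SE 0.30) and Dnal4 (0.89, SE 0.30). Their adjusted p was 0.0223 to 0.0403, and each lost the call without VCR 2, Low-VCR 1 or Low-VCR 3 (adjusted p = 0.0515 to 0.12). None was called when only these 8 libraries were fitted, 38 without VCR 3, and 13 without VCR 2, Low-VCR 1 or Low-VCR 3.

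**Figure D4:**
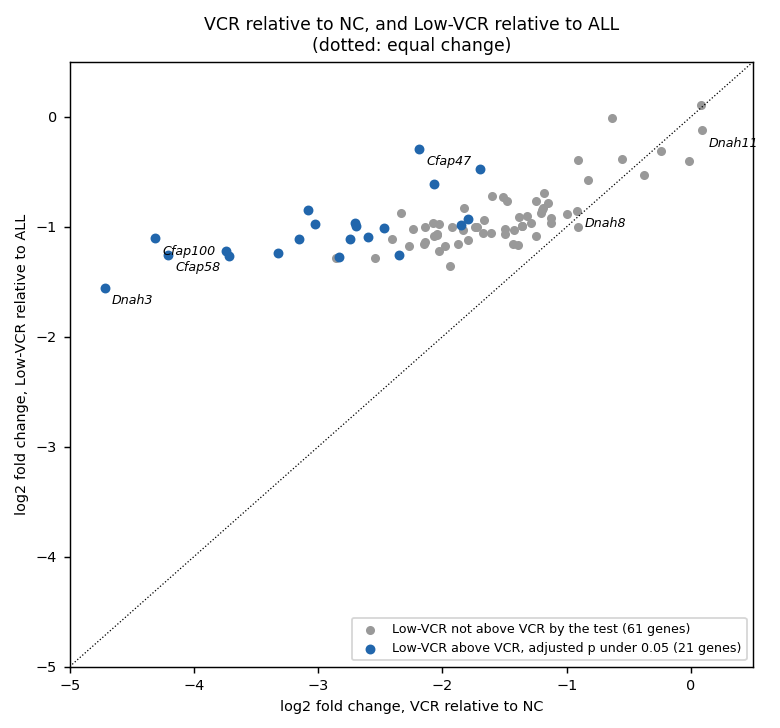
Log2 fold change of each of the 82 genes in Low-VCR relative to ALL (vertical) against VCR relative to NC (horizontal). The dotted line marks equal change, and blue marks the 21 genes called higher in Low-VCR than in VCR. Dnah3 lies at -4.72 and -1.56, and Dnah11 close to 0 on both axes.

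Whether the response to vincristine differed with engraftment was asked by the interaction, the change from ALL to Low-VCR less that from NC to VCR. It was positive in 4 genes (4.88%), where 3.81% of all genes were called positive, a share near the background. They were Cfap100 (3.20, SE 0.82, adjusted p = 0.0415), Dnah3 (3.16, SE 0.90, adjusted p = 0.0498), Cfap47 (1.89, SE 0.43, adjusted p = 0.0352) and Cfap141 (1.74, SE 0.38, adjusted p = 0.0312). The count was 0 without NC 1, NC 3, VCR 2, Low-VCR 1, Low-VCR 3 or any 1 of the ALL libraries, and 1 without NC 2 or NC 4. It was 13 without VCR 3, 11 without VCR 1 and 10 without Low-VCR 4. The Dnah3 call was lost with every other scaling tried (adjusted p = 0.0516 to 0.089), with no filter (0.0525) and with the compared groups alone (0.0592). With the compared groups alone Cfap100 was at an adjusted p of 0.0506. For High-VCR the same difference was called in 0 genes (0.00605% of all genes), with 1 of the 82 at an unadjusted p under 0.05, Rsph3b (0.58, SE 0.27, adjusted p = 0.97 in edgeR). Dnaaf9 (0.74, SE 0.41) and Dnal1 (0.70, SE 0.43) came next, at the same adjusted p.

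No difference between High-VCR and VCR passed in these genes. None of the 82 was called higher (0.00605% of all genes) or lower (0%), and in 0 were all High-VCR libraries above VCR (2.25%) or below (0.641%). Dnaaf9 alone was at an unadjusted p under 0.05 (log2 0.76, adjusted p = 0.534 in edgeR). Rsph10b (0.71, SE 0.41, adjusted p = 0.691) and Cfap276 (0.92, SE 0.49, adjusted p = 0.666) did not pass, and DESeq2 called 0 of the 82. The median of the 82 was 0.40 with all libraries and -0.45 with VCR 1 and High-VCR 2 both left out, so the direction rested on those libraries.

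Other parts of the machinery gave like values in VCR against NC. Of all genes tested 35.6% were called lower there and 42.1% higher. Of 34 other axoneme genes tested 34 were lower (100%, median -2.23). Pierce1, a doublet protein, fell by 2.53 (SE 0.29, adjusted p = 7.15e-07), and Ribc1, also of the doublet, by 3.32 (SE 0.45, adjusted p = 4.33e-06). Of 14 genes of outer arm docking and further dynein assembly 11 were lower (median -1.60), among them the docking gene Odad2 (-3.08, SE 0.59, adjusted p = 0.000147). Intraflagellar transport, which carries axoneme parts along the growing cilium, had 23 of 27 genes lower (85.2%) and 1 higher (3.7%), with a median of -1.26. Kifap3, a subunit of its kinesin, was at -2.77 (SE 0.35, adjusted p = 1.73e-06).

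Cytoplasmic dynein and dynactin, the motor that carries cargo within cells of all kinds, had 17 of 26 genes lower and 6 higher (median -0.56). These are 65.4% lower, against 35.6% of all genes, and 23.1% higher, against 42.1%. The light intermediate chain Dync1li1 rose by 1.52 (adjusted p = 9.52e-08) and the light chain Dynlrb1 by 1.88. Ciliary and spermatid transcription factors had 11 of 13 lower (84.6%) and 2 higher (15.4%), with a median of -1.74. Foxj1, a regulator of motile cilia, had 140 ± 28 CPM in NC and 133 ± 9.89 in ALL (SD, n = 4 each). With vincristine it had 5.95 ± 5.6 CPM (VCR), 50.2 ± 36.0 (Low-VCR) and 10.2 ± 4.96 (High-VCR). Its fall in VCR was 4.56 on the log2 scale (SE 0.66, adjusted p = 9.51e-06). Its treated groups stood in the same order as those of Dnah3, at 10.9, 107 and 17.7 CPM. That order was not particular to Dnah3, and held for Cfap206 (194, 421 and 261) and Dnaaf1 (458, 873 and 616). It did not hold for Dnah8 (196, 207 and 263). A link between Foxj1 and these genes was not tested. Rfx3, an RFX factor of ciliary genes, was at 21.0 ± 1.62 CPM in NC and 2.51 ± 1.63 in VCR (log2 -3.05, SE 0.38, adjusted p = 1.52e-06). Rfx2, the RFX factor known from spermiogenesis, was at 344 ± 48.8 CPM in NC and 103.1 ± 84.5 in VCR (log2 -1.74, SE 0.57, adjusted p = 0.0108).

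Against ALL, the other axoneme genes had a median of -1.03 in Low-VCR and -1.67 in High-VCR. Intraflagellar transport stood at -0.77 and -1.05, and cytoplasmic dynein at -0.47 and -0.43. Round spermatid markers stood at -1.29 and -3.54. The 82 genes, at -0.997 and -1.41, thus lay close to the other axoneme genes and above the round spermatid markers in both comparisons. Elongating spermatid markers, at -0.82 and -1.19, and spermatocyte markers, at -0.69 and -1.18, lay above the 82 genes, and no test compared the lists. The comparisons of Low-VCR and High-VCR share the ALL libraries.

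**Figure D5:**
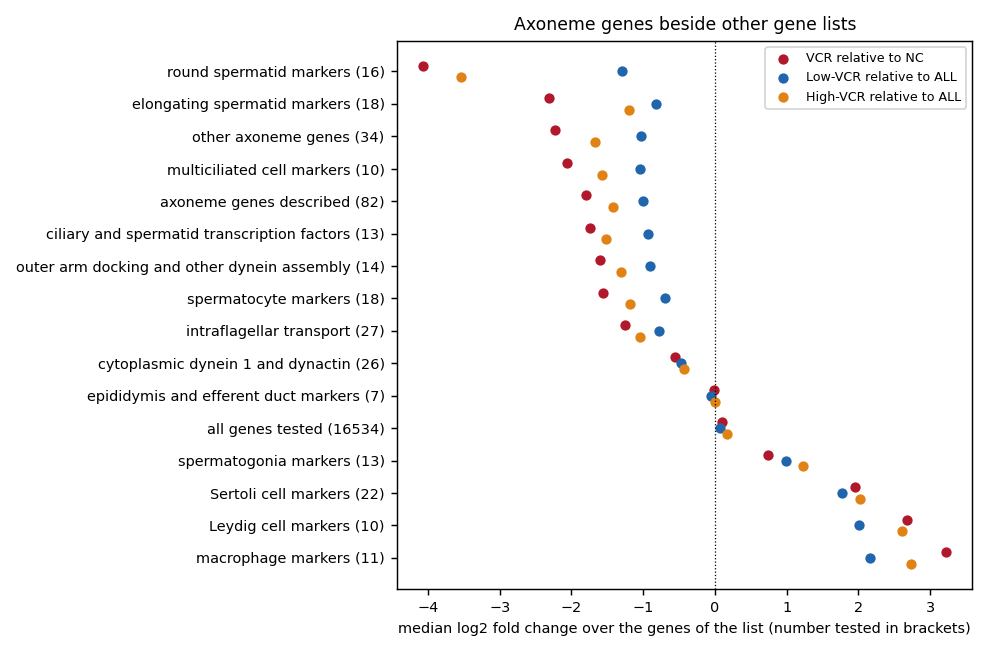
Median log2 fold change of the 82 genes, of each pathway list, of each cell type marker list and of all genes tested, in VCR relative to NC, Low-VCR relative to ALL and High-VCR relative to ALL. Spermatocyte, spermatid and axoneme lists lie below 0 in all 3 comparisons, and spermatogonia, Sertoli cell, Leydig cell and macrophage lists above 0.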

How the data were processed

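Testis RNA was measured in 20 libraries, 5 groups of 4. The authors deposited 1 matrix of raw read counts per gene symbol. Per the labels' protocols, RNA was extracted with TRIzol and made into oligo-dT selected, directional libraries. The build GRCm39 and the tools DESeq2 1.36.0, Subread 2.0.3 with featureCounts, STAR 2.7.10b and Trimmomatic 0.39 are named in the submitters' processing notes. Their roles, the annotation, the strand setting and the treatment of human reads are not given in the sources used here, so reads of overlapping genes may be shared. Of 71 genes of the set placed in RefSeq, 39 overlap another gene.

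From the counts, edgeR 4.0.16 in R 4.3.3 was run with TMM scaling, filterByExpr by group (minimum count 10, 16534 of 22066 symbols kept), and a robust quasi-likelihood fit of 5 group means over all 20 libraries (15 residual degrees of freedom). Of the symbols, 1207 had no count. CPM used the same scaling. Standard errors were the log2 change divided by the square root of F. Library totals of 9425158 to 16357287 counts set the precision, and the floor of a count of 0 is 3 counts; floors cover counting error only. Replicate libraries differed beyond counting noise, and none was counted as a duplicate. The procedure was tested on simulated data. DESeq2 1.42.0, other scalings, no filter, fits of the compared groups alone, a replicate block and leaving out each library were tried. A library-number covariate was tried in the engrafted libraries alone, without NC and VCR. It split the libraries numbered 26 to 33 from those numbered 102 to 116. It did not adjust for the number range that coincides with engraftment.

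The genes, roles and lists were chosen with earlier results of these data known. In each comparison, the text names from each role up to 2 genes with the smallest adjusted p among those called, the 3 with the smallest p where fewer than 3 passed, the 5 lowest and 5 highest changes in VCR against NC, and up to 2 genes of each list. Genes named for a contrast (Dnah17, Dnah8, Dnah6, Rsph1, Rsph6a, Rfx2, copies) and the markers Sntn, Mcidas and Tmem212 were chosen after their values were seen. Roles of members are background knowledge. Exon lengths came from GENCODE vM21 and promoters from RefSeq (GRCm38.p6), neither on the build of the counts.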

Additional observations from a re-analysis of the deposited data

Results flagged for a closer look

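With 4 libraries a group, 1 library was set apart when its gap to the nearest of the others, divided by the range of the group, was above Dixon's critical value at 95%. This happened in 15 of 415 gene and group pairs or sums tested (3.61%), where chance gives about 1 in 20, and 8 of the 15 were in High-VCR. In the untreated groups, Dnah6 was at 121.6 CPM in NC 4 (152.6 to 157.4 in the others) and Rsph4a at 1.949 in NC 1 (1.164 to 1.292). In ALL, Cfap45 was at 472.7 in ALL 1 (454 to 455.9), Dnaaf6b at 0.6621 in ALL 4 (1.113 to 1.197) and Dnah7b at 147.8 in ALL 1 (206.5 to 218.1). In Low-VCR, Dnaaf1 was at 961.7 in Low-VCR 4 (841.9 to 845.7) and Drc7 at 65.93 in Low-VCR 2 (77.63 to 79.64).

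In High-VCR, 4 genes stood apart upward in High-VCR 2: Cfap97 at 181.2 CPM (41.64 to 59.15 in the others), Dnaaf2 at 115.5 (40.36 to 49.16), Dnah7b at 227.7 (71.14 to 77.23) and Cfap410 at 29.78 (24.67 to 25.11). High-VCR 3 was high for the doublet genes Cfap276 at 75.85 (42.17 to 44.49) and Cfap77 at 4.009 (0.8932 to 1.363), and for Cfap97d1 at 29.25 (15.44 to 16.89). High-VCR 1 was high for Dnah9 at 11.33 (6.308 to 7.072).

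By the interaction test, 4 genes were called (4.88%, against 3.81% of all genes), a share near the background. They were Cfap100 (3.204 on the log2 scale), Dnah3 (3.161), Cfap47 (1.893) and Cfap141 (1.735). None of them kept the call with Sertoli scaling, with the replicate block or without any 1 of the ALL libraries.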

How the results depend on the processing

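Of the 82 genes, the number lower in VCR against NC was 67; other scalings, tools and fits gave 52 to 82, and leaving out 1 library 57 to 77. With library size alone 2 genes (Dnah11 and Dnaaf10) were called higher in VCR and 2 in High-VCR. The number lower in High-VCR against ALL was 54, 82 with Sertoli scaling and 36 to 75 with 1 library left out (0 to 1 higher). The number lower in Low-VCR against ALL was 14. It became 42 with DESeq2 size factors, 4 with library size alone and 82 with Sertoli scaling. It was 68 with the compared groups alone and 58 with DESeq2. With the library-number covariate, fitted in the engrafted libraries without NC and VCR, it was 47. With 1 library left out it was 6 to 13 (6 without ALL 1, ALL 3, ALL 4 or Low-VCR 2). High-VCR against Low-VCR gave 8, and 5 (Sertoli), 0 (compared groups alone), 3 (replicate block), 13 (covariate), 49 (VCR 1 and High-VCR 2 left out, added after seeing the data) and 0 to 16 (1 library left out). Low-VCR against VCR gave 21, and 0 (compared groups alone) and 13 to 38 (1 library left out). The Low-VCR interaction gave 4, and 0 (Sertoli), 0 (replicate block), 13 (DESeq2), 15 (both libraries left out) and 0 to 13 (1 library left out). The cause was not tested. These counts, and those for other settings above, stand without the share of all genes called in the same setting. That background moved with the setting as well.

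Directions turned for 4 genes with small changes in VCR against NC: Cfap410 (0.142, library size), Dnaaf10 (-0.046 with DESeq2 size factors, -2.063 Sertoli, -0.046 DESeq2, -0.012 to 0.164 with 1 library left out), Dnah11 (-0.031, -2.093 and -0.029 with DESeq2 size factors, Sertoli and DESeq2, and called higher at 0.477 with library size alone) and Rsph4a (0.382 library size, -0.154 to 0.178 with 1 library left out, and above 0 at 0.170 without NC 1). Over the named genes, 1321 values kept direction and side of the threshold, 197 lost the call, 7 gained it and 11 turned. Replicate numbers did not pair the samples: deviations of same-numbered libraries correlated between -0.384 and 0.526, and the replicate block gave 71 genes lower in VCR. Called genes that were higher made up 65, 50 and 4.94% in VCR with library size, DESeq2 size factors and Sertoli scaling, against 54.2%. In Low-VCR these were 89.3, 52.9 and 1.78% against 70.6%, and in High-VCR 68.6, 51.1 and 3.09% against 58.2%. Counts near 1 CPM, as in Rsph4a, limit what could be seen.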
